A study of Mus musculus with 6 samples.

Results

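This account covers 9 genes of the complement system in mouse macrophages: the C1q chain genes *C1qa*, *C1qb* and *C1qc*, the component genes *C3* and *C4b*, the alternative pathway genes *Cfb* and *Cfp*, and the anaphylatoxin receptor genes *C3ar1* and *C5ar1*. They were taken by symbol from the deposited FPKM table of 54532 genes, and each of the 9 symbols had 1 row. FPKM is fragments per kilobase of gene, on a scale set for each library. RNA had been sequenced from primary macrophages of mice labelled METRNL KO (genotype METRNL-/-, 3 libraries, KO below) and of WT mice (METRNL+/+, 3 libraries), all cultured with the yeast *Candida albicans* for 6 h. There were no libraries without the fungus, so the single comparison is between genotypes during the challenge. The labels name no strain, age, tissue of origin or amount of fungus, nor whether animals were pooled or replicates came from separate cultures. The p-values therefore rest on the variation among these 6 libraries, and this may be technical variation.

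Complement is a set of proteins that coat microbes for uptake and draw in phagocytes. The classical pathway starts when C1q, a protein built from A, B and C chains, binds a target and C4 is then cleaved. The lectin pathway starts from sugar-binding proteins such as ficolins, and the alternative pathway runs on factor B and is held together on surfaces by properdin. All of them cleave C3, and the fragments C3a and C5a act on the receptors C3aR and C5aR1. Most plasma complement comes from the liver, whereas C1q and properdin are made largely by myeloid cells. Yeast surfaces bind C3 fragments, and phagocytes take up such yeast through complement receptors.

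The libraries held 14772746, 15724897 and 14915816 reads in genes in KO replicates 1 to 3, against 14309247, 11026529 and 12458673 in WT replicates 1 to 3. The deposited FPKM scale did not follow these totals alone. *C3* had 12910 reads and 196 FPKM in KO replicate 1, against 12935 reads and 157 FPKM in WT replicate 1. Replicates 2 and 3 of each group were close to each other, and replicate 1 of each group stood apart from them. Chi-square per degree of freedom over genes, which is 1 for sampling noise, was 2.30 for KO replicates 2 and 3 and 7.10 for WT replicates 2 and 3, and 39.6 to 59.4 for the other pairs of a group. *Metrnl* RNA, at 51.2, 63.6 and 62.8 FPKM in KO replicates 1 to 3 and 93.5, 63.2 and 69.8 FPKM in WT replicates 1 to 3, overlapped between the groups and does not check the labels. KO therefore means the libraries labelled so. Of the 10 listed macrophage markers all passed the filter. In KO 4 were called higher and 1 lower, against 15.7% and 12.4% of all tested genes. Their summed level was 8481 to 9157 FPKM in KO and 4737 to 5533 FPKM in WT. *Lyz2* (4197 to 4567 FPKM in KO, 1803 to 2598 FPKM in WT) and *Cd14* (2332 to 3302 FPKM in KO, 1495 to 2041 FPKM in WT) held most of it. *Lyz2* was called higher (limma adjusted p = 0.00719) and *Cd14* was not called (0.0755). The lower marker was *Fcgr1*, averaging 1.24 FPKM in KO and 4.75 FPKM in WT (limma adjusted p = 0.00419). The median marker stood at 139%, 130% and 130% of the WT mean in KO replicates 1 to 3. The extraction text in the labels speaks of retinas, but of 6 retinal markers 5 lay below the filter and the other, *Pde6b*, was at 0.769 to 1.17 FPKM in KO and 0.524 to 0.558 FPKM in WT.

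The complement genes did not move as 1 block. *C4b* was 3.54-fold lower in KO, while *C1qa* was 1.76-fold, *Cfp* 1.41-fold and *C5ar1* 1.37-fold higher. *C1qb*, *C1qc*, *C3*, *C3ar1* and *Cfb* did not pass the test. All 9 passed the filter of a mean of at least 0.5 FPKM over the 6 libraries, and 3 were called higher and 1 lower (limma, Benjamini-Hochberg adjusted p below 0.05 over 11689 genes). Across all tested genes 28.0% were called, 15.7% as higher and 12.4% as lower in KO, so with 4 of 9 called the members' count is not far from that background. The median log2 fold change, taken as KO minus WT of log2(FPKM + 1), was 0.32 over the 9 members and 0.03 over all tested genes. On the deposited scaling, the KO and WT values did not overlap for 8 of the 9 members, against 45.6% of all tested genes. *C3ar1* was the exception. Without WT replicate 1 there were 7 called members, 6 of them higher, because *C1qb*, *C1qc* and *C3ar1* then passed. Among all genes, 3278 were called, against 1776 without KO replicate 2, 1775 without KO replicate 3, 2091 without WT replicate 2 and 1902 without WT replicate 3. With the deposited scaling 55.9% of the called genes were higher in KO. In TPM, where each library sums to the same total, it was 31.8% over the same 11689 genes, and 27.8% over the 15259 genes that pass the filter in TPM. Of the members, 2 were called higher and 1 lower in TPM. Overlap depends on the scaling too, and was counted on the deposited scaling only.

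**Figure D1:**
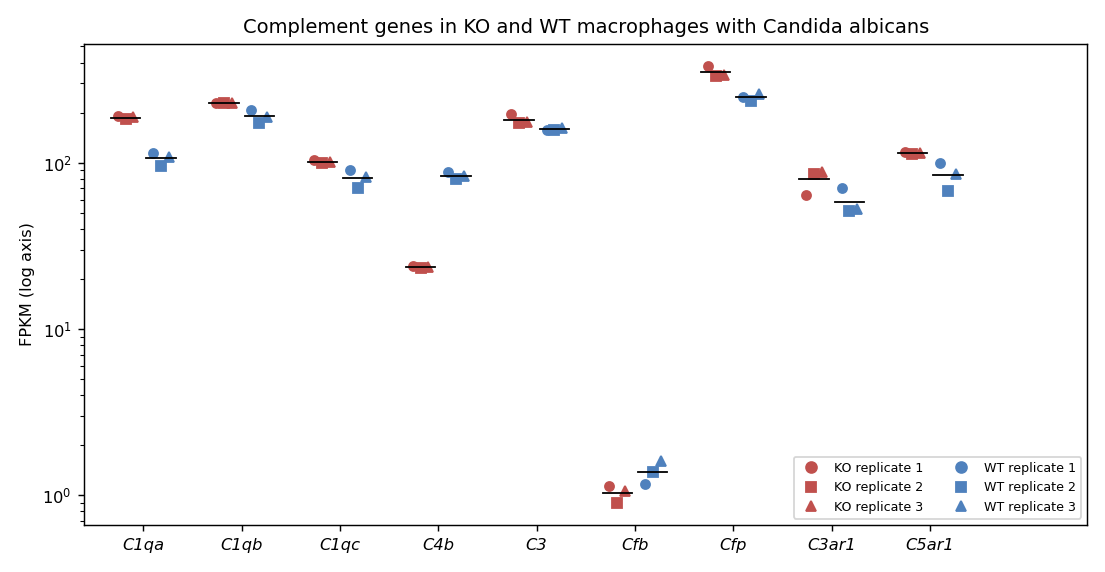
FPKM of the 9 complement genes in each library, on a log axis, with KO libraries in red to the left of WT libraries in blue. Points are single libraries and bars are group means; *C4b* lies at 23.4 to 24.1 FPKM in KO and 79.3 to 88.1 FPKM in WT, while *C1qa* lies at 182 to 191 FPKM in KO and 95.5 to 115 FPKM in WT.

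By level per gene length, 8 of the 9 genes were well expressed and *Cfb* was not. Mean FPKM in KO ran from *Cfp* at 350 through *C1qb* at 229, *C1qa* at 187, *C3* at 182, *C5ar1* at 115, *C1qc* at 101, *C3ar1* at 79.3 and *C4b* at 23.6 to *Cfb* at 1.03. In KO the values of neighbours in that order overlapped for *C1qa* and *C3* alone. In WT the order was *Cfp* at 248, *C1qb* at 190, *C3* at 159, *C1qa* at 106, *C5ar1* at 84.0, *C4b* at 83.6, *C1qc* at 81, *C3ar1* at 58.1 and *Cfb* at 1.39 FPKM. The 4 genes from *C1qa* to *C1qc* in the WT order overlapped each with the next. *C4b* therefore stood among the receptor and C1q genes in WT and below all of them in KO.

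*C4b* encodes the fourth component, which C1s and the mannose-binding lectin proteases cleave to start the C3 convertase of the classical and lectin pathways. It lies at GRCm38 chromosome 17, 34728380 to 34743882, on the minus strand (ENSMUSG00000073418, protein coding). Its level was 24.1, 23.4 and 23.4 FPKM in KO replicates 1 to 3, against 88.1, 79.3 and 83.5 FPKM in WT replicates 1 to 3. Every KO value was below every WT value, and the KO values were nearly equal, at 28.8%, 27.9% and 28.0% of the WT mean. The means were 23.6 ± 0.390 FPKM in KO and 83.6 ± 4.4 FPKM in WT (SD, n = 3 each), and the log2 fold change was -1.78 ± 0.07 (SE, 95% confidence interval -1.94 to -1.62; limma adjusted p = 5.19e-05). The values rest on 5855 reads over the KO libraries and 19314 over the WT libraries. Of 11689 tested genes, 133 had a lower log2 fold change than *C4b*, which ranked 134 from the lowest.

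*C4b* has a close copy on the same chromosome, *C4a*, and belongs with *C3* to a family whose proteins bind surfaces through an internal thioester. The sequences below, from the GENCODE M21 transcripts, show how far the 3 genes can be told apart there. They are written 5′ to 3′ and the capitals mark the codons of the thioester site in *C3* and *C4b*, and the stretch of a *C4a* transcript that is closest to that of *C4b*.
C3: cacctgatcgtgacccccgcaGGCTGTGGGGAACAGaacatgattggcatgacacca
C4b: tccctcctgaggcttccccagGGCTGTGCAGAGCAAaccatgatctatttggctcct
C4a: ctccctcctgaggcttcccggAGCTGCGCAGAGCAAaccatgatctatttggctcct
Of the 15 bases in capitals, *C3* differs from *C4b* at 4 and *C4a* at 2, and of the 21 bases after them *C3* differs at 9 and *C4a* at 0. Over all 57 bases shown, compared base by base without gaps, *C3* differs from *C4b* at 26 and *C4a* at 14. Before the capitals, most letters of *C4b* recur in *C4a* shifted by 1 base. The count of 14 therefore overstates how far the 57 bases of these copies differ. Over the whole *C4b* transcript of 5379 bases, 35.2% of all stretches of 50 bases and 16.5% of all stretches of 100 bases also occur in a *C4a* transcript, and none in *C3*. Reads from such stretches could have been given to either copy. *C4a* was listed with 29 reads over the KO libraries and 70 over the WT libraries, and its highest value was 0.399 FPKM, in WT replicate 3. With the reads of both copies summed as 1 gene, the log2 fold change was -1.78 as well (limma adjusted p = 5.18e-05).

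The C1q chain genes stood side by side on chromosome 4, all on the minus strand, with the start of *C1qc* 5738 bases and that of *C1qb* 12616 bases downstream of the start of *C1qa*. In protein, the A, B and C chains are assembled in equal numbers. *C1qa* (ENSMUSG00000036887, 136895917 to 136898803) was at 191, 182 and 187 FPKM in KO replicates 1 to 3, against 115, 95.5 and 108 FPKM in WT replicates 1 to 3. All 3 KO values were above all 3 WT values, and the log2 fold change was 0.82 ± 0.09 (SE, 95% confidence interval 0.60 to 1.03; limma adjusted p = 0.00177). *C1qb* (ENSMUSG00000036905, 136880129 to 136886187) was at 229, 230 and 228 FPKM in KO, against 208, 172 and 189 FPKM in WT. The groups did not overlap, yet the log2 fold change of 0.27 ± 0.09 (SE) did not pass (limma adjusted p = 0.0641), and WT replicate 1 was the WT value nearest to KO. *C1qc* (ENSMUSG00000036896, 136889804 to 136893065) was at 103, 99.7 and 101 FPKM in KO, against 90.1, 70.8 and 82.1 FPKM in WT, with a log2 fold change of 0.32 ± 0.10 (SE, limma adjusted p = 0.0528). Without WT replicate 1 the adjusted p was 0.0343 for *C1qb* and 0.0283 for *C1qc*.

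The balance between the C1q chain genes differed, and this measure does not depend on how libraries were scaled. The FPKM ratio of *C1qa* to *C1qb* was 0.834, 0.792 and 0.822 in KO replicates 1 to 3, against 0.551, 0.554 and 0.572 in WT replicates 1 to 3. The ratio of *C1qc* to *C1qb* was 0.451, 0.434 and 0.441 in KO, against 0.432, 0.411 and 0.435 in WT. The first ratio was higher in every KO library than in any WT library, and the second overlapped between the groups. *C1qa* made up 36.1% ± 0.485 of the summed FPKM of the 3 genes in KO and 28.2% ± 0.355 in WT (SD, n = 3 each). In an exact two-sided permutation test the *C1qa* to *C1qb* ratio gave p = 0.1, the smallest that 3 against 3 libraries allow, and p = 0.167 after Benjamini-Hochberg adjustment over 5 ratios. For *C1qc* to *C1qb* the exact permutation test gave p = 0.2. The summed FPKM of the 3 genes was 511 to 524 in KO and 339 to 413 in WT.

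**Figure D2:**
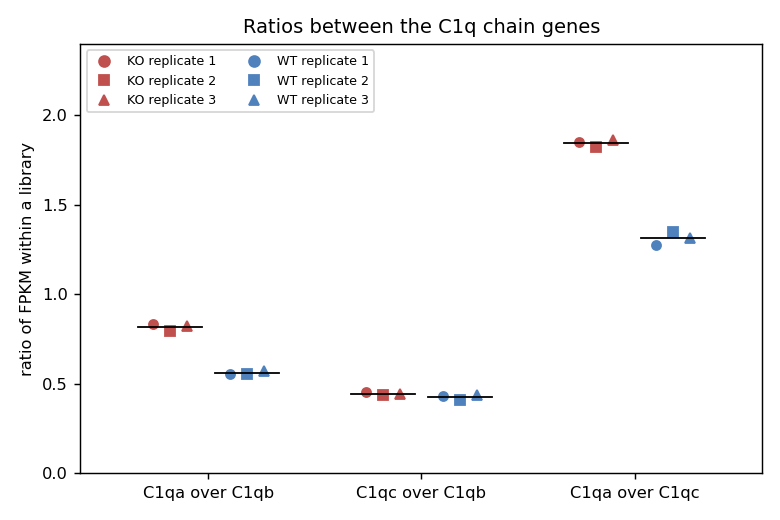
Ratios of FPKM between the C1q chain genes within each library, KO in red to the left of WT in blue, with bars at the group means. The ratio of *C1qa* to *C1qb* is 0.792 to 0.834 in KO and 0.551 to 0.572 in WT, that of *C1qc* to *C1qb* overlaps between the groups, and that of *C1qa* to *C1qc* is 1.83 to 1.86 in KO and 1.27 to 1.35 in WT.

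Promoter sequences, 250 bases before to 50 bases after the RefSeq start (GRCm38.p6), were at hand for 6 members. Those of *C1qa*, *C4b* and *Cfb* were not used here. The sequences below are those of 2 C1q genes and of *Cfp*, the genes named above with a match to the core GAGGAA, which the myeloid factor PU.1 binds, and that of *C3*. All are read 5′ to 3′ on the strand of the gene, and capitals mark matches to the motifs searched.
C1qb (chr4:136886151-136886450, minus strand): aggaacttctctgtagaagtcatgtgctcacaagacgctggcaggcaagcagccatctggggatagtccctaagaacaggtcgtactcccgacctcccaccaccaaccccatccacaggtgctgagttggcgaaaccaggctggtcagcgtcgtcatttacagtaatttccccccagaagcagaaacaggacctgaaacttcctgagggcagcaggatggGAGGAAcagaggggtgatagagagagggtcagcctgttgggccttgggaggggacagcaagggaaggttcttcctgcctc
C1qc (chr4:136892865-136893164, minus strand): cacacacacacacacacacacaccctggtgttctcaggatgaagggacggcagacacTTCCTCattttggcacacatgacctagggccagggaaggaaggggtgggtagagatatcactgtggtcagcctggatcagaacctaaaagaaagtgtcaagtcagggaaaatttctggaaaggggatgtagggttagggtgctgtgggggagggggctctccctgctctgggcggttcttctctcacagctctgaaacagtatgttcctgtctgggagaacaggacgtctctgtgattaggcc
Cfp (chrX:20931506-20931805, minus strand): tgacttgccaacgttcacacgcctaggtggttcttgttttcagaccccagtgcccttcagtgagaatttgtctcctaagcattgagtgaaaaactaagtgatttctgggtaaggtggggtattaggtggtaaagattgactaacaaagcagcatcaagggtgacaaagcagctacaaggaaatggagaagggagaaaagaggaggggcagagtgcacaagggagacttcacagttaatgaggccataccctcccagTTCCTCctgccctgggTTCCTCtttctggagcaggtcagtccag
C3 (chr17:57228087-57228386, minus strand): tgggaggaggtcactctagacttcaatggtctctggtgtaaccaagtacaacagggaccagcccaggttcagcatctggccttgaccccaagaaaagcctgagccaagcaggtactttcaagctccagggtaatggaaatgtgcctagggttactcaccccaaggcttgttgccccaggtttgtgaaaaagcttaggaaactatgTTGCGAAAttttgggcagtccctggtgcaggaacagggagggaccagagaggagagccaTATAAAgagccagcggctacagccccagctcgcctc
The motifs were searched on both strands: GAGGAA, the STAT element TTCNNNGAA, the interferon-stimulated response element (GAAA, any 2 bases, GAAA), the C/EBP element TTGCGNAA, the AP-1 element TGANTCA, the TATA box TATAAA and the E-box CACGTG. No matches overlapped each other in these promoters. GAGGAA lay 30 bases before the start of *C1qb*, 193 bases before that of *C1qc*, and 6 and 22 bases after that of *Cfp*, and 28.3% of 32851 promoters of the same length held it. *C3* held TTGCGNAA 45 bases before its start, as did 0.798% of all promoters, and TATAAA 14 bases after it, as did 13.6%. The *C3ar1* promoter held TGANTCA 22 bases before its start, as did 7.81% of all promoters, and TATAAA 235 bases before it. In none of the 6 windows were the letters of the STAT element (8.30% of all promoters), the interferon element (3.44%) or the E-box (7.15%) found, and the *C5ar1* window held none of the motifs. A match describes letters only and was not tested against expression.

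*C3* encodes the component on which all 3 pathways meet (ENSMUSG00000024164, chromosome 17, 57203970 to 57228136). It was at 196, 173 and 177 FPKM in KO replicates 1 to 3, against 157, 157 and 162 FPKM in WT replicates 1 to 3. The groups did not overlap but the gap was small beside the spread within KO, and the log2 fold change of 0.19 ± 0.08 (SE, 95% confidence interval 0.01 to 0.38) did not pass (limma adjusted p = 0.112). Set against *C4b*, there were 7.39 to 8.15 FPKM of *C3* per FPKM of *C4b* in KO and 1.78 to 1.98 in WT. That ratio also gave p = 0.1 in the exact permutation test (0.167 adjusted over the 5 ratios).

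*Cfp* encodes properdin, which stabilizes the alternative pathway convertase (ENSMUSG00000001128, chromosome X, 20925454 to 20931555). It was the most abundant of the 9 in both groups, at 382, 331 and 338 FPKM in KO replicates 1 to 3, against 250, 235 and 259 FPKM in WT replicates 1 to 3. All KO values lay above all WT values, and the log2 fold change reached 0.49 ± 0.09 (SE, limma adjusted p = 0.0107). KO replicate 1 was highest on the deposited scaling, on 8494 reads, against 9057 and 8806 reads in KO replicates 2 and 3. *Cfb*, the gene of the protease factor B (ENSMUSG00000090231, chromosome 17, 34856374 to 34862518), was near the floor at 1.13, 0.897 and 1.06 FPKM in KO, against 1.17, 1.38 and 1.61 FPKM in WT. These values rest on 40 to 45 reads per KO library and 46 to 57 per WT library, KO replicate 1 and WT replicate 1 differed by less than the spread within either group, and the difference did not pass (-0.23 ± 0.10 SE on the log2 scale, adjusted p = 0.148 by limma). The gene model *Gm20547* overlaps *Cfb* and was listed at 0 in every library.

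The anaphylatoxin receptors C3aR and C5aR1 are G protein-coupled receptors through which C3a and C5a act on myeloid cells. *C5ar1* (ENSMUSG00000049130, chromosome 7, 16246743 to 16259540) was at 116, 114 and 115 FPKM in KO replicates 1 to 3, against 99.2, 67.7 and 85.1 FPKM in WT replicates 1 to 3. The KO values were close together above a wide WT range, and the log2 fold change reached 0.46 ± 0.14 (SE; adjusted p = 0.0498 by limma). The call was at the edge of the threshold: the adjusted p was 0.225 in TPM, 0.172 with quantile normalization, 0.0986, 0.123 and 0.129 without KO replicate 1, 2 or 3, and 0.0658 and 0.114 without WT replicate 2 or 3. *C3ar1* (ENSMUSG00000040552, chromosome 6, 122847138 to 122856161) was at 63.6, 85.9 and 88.2 FPKM in KO, against 70.5, 51.1 and 52.9 FPKM in WT. The groups overlapped because KO replicate 1 was the lowest of KO and WT replicate 1 the highest of WT. Its log2 fold change of 0.44 ± 0.17 (SE) did not pass (limma adjusted p = 0.109), but did without KO replicate 1 (0.59, adjusted p = 0.043), without WT replicate 1 (0.58, adjusted p = 0.0475) and without both (0.73, adjusted p = 0.00166). There were 1.83, 1.32 and 1.30 FPKM of *C5ar1* per FPKM of *C3ar1* in KO and 1.41, 1.33 and 1.61 in WT, which overlapped (exact permutation p = 1.0).

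The other complement genes were read from a list of 45 by role, of which 15 passed the filter, 5 were called higher and 5 lower. Of all tested genes 15.7% were called higher and 12.4% lower, and the counts by role below stand beside these shares. Among the genes that start the pathways, 3 of 14 passed the filter, and 1 was higher and 1 lower. *Fcna* encodes ficolin A, a lectin pathway recognition protein that macrophages make. It was at 5.58, 5.76 and 6.56 FPKM in KO replicates 1 to 3, against 30.5, 27.0 and 30.8 FPKM in WT replicates 1 to 3. It was thus 4.93-fold lower (-2.13 ± 0.09 SE on the log2 scale, adjusted p = 6.75e-05 by limma), with no overlap and on 358 reads in KO and 1638 in WT. The C1r protease gene *C1ra* averaged 7.0 ± 0.571 FPKM in KO and 4.58 ± 0.435 FPKM in WT (SD, n = 3 each; limma adjusted p = 0.00883). Its partner *C1s1* averaged 1.75 ± 0.0815 FPKM in KO and 1.59 ± 0.167 FPKM in WT, and did not pass. None of the 8 genes of the alternative and terminal steps passed the filter, *Hc*, which encodes C5, included.

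Of the 14 regulators 5 passed the filter, and 2 were higher and 2 lower. *Cr1l*, the gene of the rodent membrane regulator Crry, was 1.48-fold higher (5.43 ± 0.167 FPKM in KO and 3.68 ± 0.316 FPKM in WT, SD, n = 3 each; limma adjusted p = 0.0075, and 0.0825 in TPM). *Clu*, which encodes clusterin, an inhibitor of the membrane attack complex, was 2.45-fold lower (2.21 ± 0.284 FPKM in KO and 5.41 ± 0.431 FPKM in WT; limma adjusted p = 0.00114). *Serping1*, the C1 inhibitor gene, averaged 0.728 ± 0.0810 FPKM in KO and 1.33 ± 0.346 FPKM in WT on 74 and 122 reads. Its call (limma adjusted p = 0.0497) ended in TPM (adjusted p = 0.0711) and without any library other than WT replicate 1 (0.099, 0.1 and 0.142 without KO replicates 1 to 3, 0.101 and 0.104 without WT replicates 2 and 3). *Cd55*, the decay-accelerating factor gene, averaged 3.88 ± 0.634 FPKM in KO and 3.78 ± 0.796 FPKM in WT and did not pass.

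Of the 9 receptor genes 7 passed the filter, and 2 were higher and 2 lower. The genes of complement receptor 3, the integrin that takes up iC3b-coated yeast, were both higher. *Itgb2* was at 800, 833 and 817 FPKM in KO replicates 1 to 3, against 547, 417 and 489 FPKM in WT replicates 1 to 3, without overlap (1.69-fold; limma adjusted p = 0.00633). *Itgam* averaged 114 ± 4.75 FPKM in KO and 83.5 ± 2.70 FPKM in WT (1.36-fold; limma adjusted p = 0.00594, and 0.0871 in TPM). *Vsig4*, the gene of the C3b and iC3b receptor CRIg of tissue macrophages, was 3.0-fold lower, at 1.21, 1.67 and 1.26 FPKM in KO and 5.17, 3.15 and 4.09 FPKM in WT (limma adjusted p = 0.00517). *C1qbp*, which encodes a mitochondrial protein also named as a C1q binder, averaged 7.38 ± 0.614 FPKM in KO and 9.71 ± 0.194 FPKM in WT (limma adjusted p = 0.0167). That call ended without KO replicate 2 (0.0556) or 3 (0.0581) and without WT replicate 2 (0.0527) or 3 (0.06). *Itgax* (50 ± 0.806 FPKM in KO and 41.4 ± 4.27 FPKM in WT), *Cd93* (44.7 ± 10.8 FPKM in KO and 27.6 ± 7.65 FPKM in WT) and *Calr* (264 ± 13.3 FPKM in KO and 277 ± 14.9 FPKM in WT) did not pass. *Cd93* passed without KO replicate 1 (adjusted p = 0.0397) or WT replicate 1 (0.0483), and *Itgax* without WT replicate 1 (0.035).

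**Figure D3:**
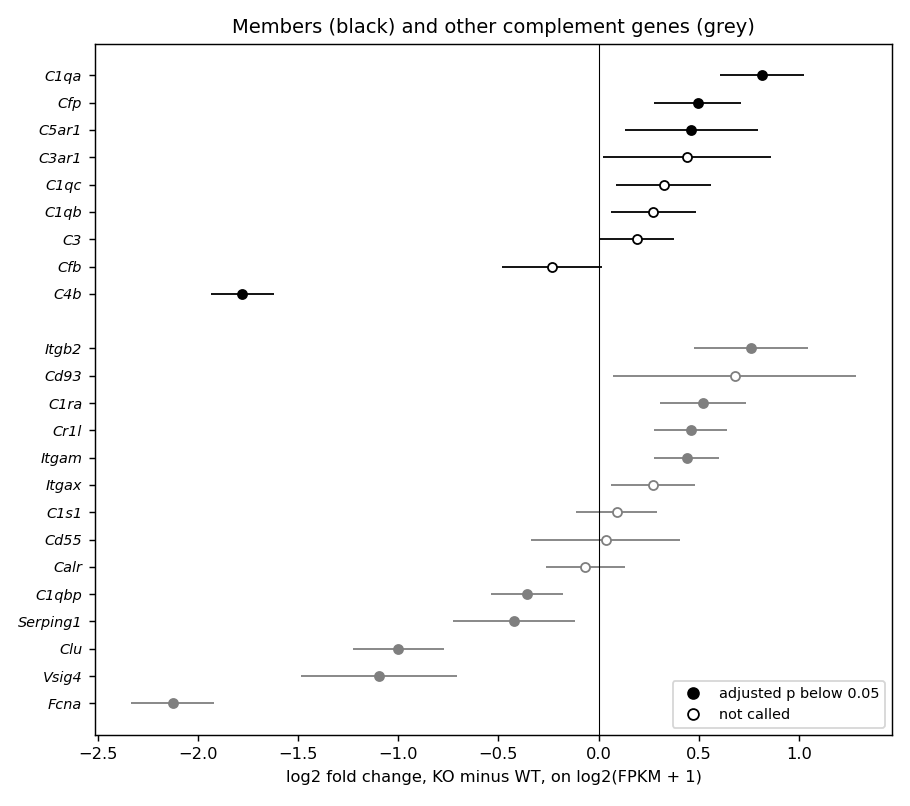
Log2 fold change (KO minus WT, log2 of FPKM + 1), with 95% confidence intervals from limma, for the 9 members in black and 14 other complement genes that passed the filter in grey. Filled points have an adjusted p below 0.05: *C4b* at -1.78 and *Fcna* at -2.13 lie farthest to the left, and *C1qa* at 0.82 farthest to the right.

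Some marker lists differed between the groups as *C4b* and *Fcna* did, and in bulk RNA fewer cells of a type and less RNA per cell cannot be told apart. The marker counts here and in the next paragraph stand beside the shares over all tested genes, 15.7% called higher and 12.4% lower. Interferon-gamma is known to induce C4 and factor B in many cells. *Cfb* was not called (limma adjusted p = 0.148). *C4b* stood at 28.8%, 27.9% and 28.0% of the WT mean in KO replicates 1 to 3. Of 20 interferon-gamma-type genes 18 passed the filter and 16 were lower in KO, with a summed level of 42.3 to 89.4 FPKM in KO and 167 to 221 FPKM in WT and with *Iigp1* at 0 in KO replicate 3. Their median stood at 47.2%, 18.2% and 14.9% of the WT mean in KO replicates 1 to 3, and at 77.6%, 119% and 108% in WT replicates 1 to 3. Of 10 mesothelial and fibroblast markers, cells that can also make C4, 7 passed the filter and 4 were lower. Their summed level was 7.31 to 9.28 FPKM in KO and 16.1 to 19.2 FPKM in WT, and no marker of that list was at 0. Its mesothelial markers *Msln* (limma adjusted p = 0.208) and *Krt19* (0.169) were not called, and *Upk3b*, *Wt1* and *Lrrn4* lay below the filter. The lower ones included *Col1a1* (0.00108) and *Col1a2* (0.00476). All 10 tested B cell markers were lower (30.0 to 38.5 FPKM summed in KO, 565 to 728 FPKM in WT), and the B cell complement receptor gene *Cr2* was at 0 in 2 KO libraries and at most at 0.146 FPKM in WT.

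Among tissue macrophage genes, 1 of 7 tested markers of large peritoneal macrophages was higher and 2 were lower. The summed level of that list was 706 to 907 FPKM in KO and 602 to 690 FPKM in WT. Most of it was *F10*, at 640 to 832 FPKM in KO and 518 to 597 FPKM in WT, which was not called (limma adjusted p = 0.102). *Timd4* was at 0.437 to 0.719 FPKM in KO and 3.79 to 6.14 FPKM in WT, and *Gata6* at 3.20 to 5.73 FPKM in KO and 2.99 to 3.66 FPKM in WT. Of 8 dendritic cell markers 6 were lower (42.8 to 55.3 FPKM summed in KO, 148 to 239 FPKM in WT), with *Cd209a* at 0 in KO replicate 2. Of 8 tested neutrophil markers, cells that also carry properdin and C5aR1, 2 were lower and 0 higher (701 to 775 FPKM summed in KO, 945 to 1256 FPKM in WT), with *Elane* at 0 in all WT libraries. All 3 tested T and NK cell markers (1.61 to 2.65 FPKM summed in KO, 8.42 to 9.6 FPKM in WT, *Klrb1c* at 0 in all KO libraries and in WT replicate 3) and all 4 tested mast cell markers (0.993 to 1.39 FPKM summed in KO, 6.51 to 8.08 FPKM in WT, *Fcer1a* at 0 in KO replicate 1 and *Mcpt4* in KO replicates 1 and 3) were lower. The part of these differences in the results for the complement genes was not tested.

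**Figure D4:**
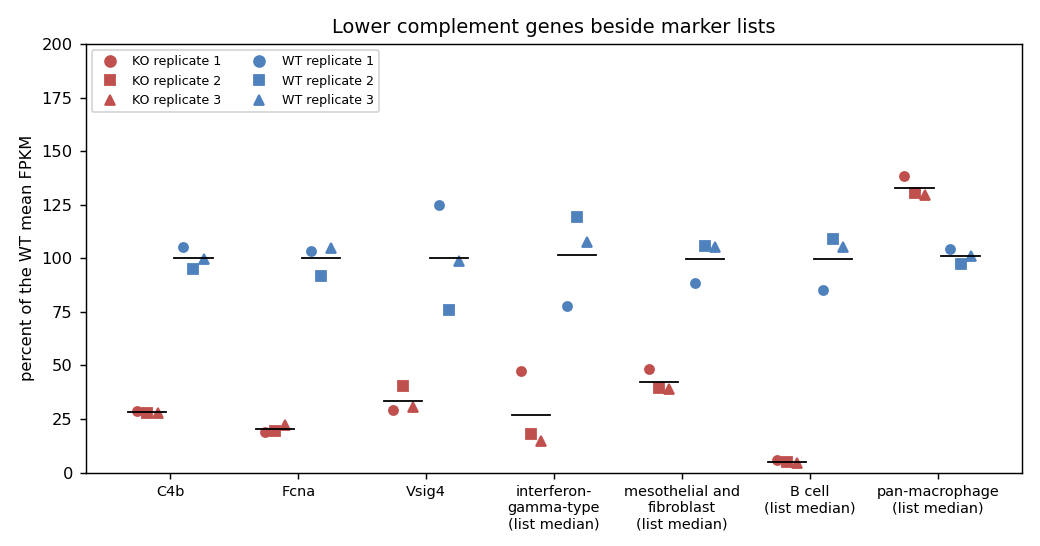
Level in each library as a percentage of the WT mean, for *C4b*, *Fcna* and *Vsig4* and for the median gene of 4 marker lists, KO in red to the left of WT in blue, with bars at the group means. KO values of *C4b* lie at 27.9% to 28.8% in all 3 replicates, and the interferon-gamma-type median is 47.2% in KO replicate 1 and 14.9% and 18.2% in the others.

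To place the members among other genes, the likeness of 2 patterns was taken as the root mean square difference between centred log2(FPKM + 1) values over the 6 libraries, and the 3 nearest were sought among 4807 genes averaging 5 FPKM or more. Nearest to *C4b* were *Ly6e* (0.08), *Cep85* (0.10) and *Ifi27l2a* (0.12). *Ly6e*, at 20.1, 19.7 and 19.7 FPKM in KO and 65.3, 64.8 and 73.2 FPKM in WT, shared the tight KO values. Nearest to the mean of the C1q chains were *Capg* (0.01), *Rps6ka2* (0.02) and *Fam219a* (0.02). That mean joins unlike chains (log2 fold change 0.82 for *C1qa*, 0.27 for *C1qb* and 0.32 for *C1qc*), and no chain was compared alone. Nearest to *C3* were *Arih2*, *Zfand3* and *Csnk2a2* (0.02 each). *Cfp* was nearest to *Atp6v1g1* (0.01), *Zswim4* (0.03) and *Lmbrd1* (0.03). *C3ar1* was nearest to *Plekhm1* (0.03), *Csf2rb* (0.04) and *Ostm1* (0.04), which were also lowest of KO in replicate 1 and highest of WT in replicate 1. *C5ar1* was nearest to *Prmt2* (0.04), *Ubald1* (0.05) and *Gsto1* (0.05). *Cfb* was nearest to *Rpl14* (0.01), *Ddx27* (0.03) and *Cse1l* (0.04), in a profile that the pseudocount flattens at its low level.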

How the data were processed

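Gene coordinates, lengths and FPKM values come from 1 table that the authors deposited, and the submitters' processing notes name GRCm38 (mm10) as the build. Aligner, counter, annotation release and strand setting: not given in the sources used here. Coordinates and lengths of the 9 members equalled those of GENCODE M21. Groups and replicate numbers come from the sample titles. In each library, FPKM × length fell on whole steps (tolerance 0.05) in 100% of nonzero values. The number of steps is the read number given.

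Values were tested as log2(FPKM + 1) with limma 3.58.1 in R 4.3.3, with genotype alone in the model and eBayes with an intensity trend, over 11689 genes averaging 0.5 FPKM or more. The log2 scale understates changes of low genes. Folds are ratios of mean FPKM. The script was tested on simulated data. Members and gene lists were chosen with earlier results of these data known, and p-values were adjusted over all tested genes. Named are the members, the other complement genes that were called or had a mean of at least 20 FPKM, and the genes of most like pattern. Tested genes whose start lies within 50 kb of the start of a member are named too. A gene named outside this rule (*C1s1*, *Cd55*, *Hc*, *C4a*, *Cr2* and markers) was chosen after its values were seen. One gene that the rule gave is counted but not reported here. Python 3.11.15 made the tables.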

Additional observations from a re-analysis of the deposited data

How the results depend on the processing

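No alternative reversed any of the 9 members or the 13 other complement genes that the naming rule gave. Over these 22 genes, 298 of 351 alternative fits kept the side of the threshold, 37 lost a call and 16 gained one. *C4b* stayed called in all 17 (log2 fold change -1.91 to -1.74, -1.82 to -1.74 without single libraries), as did *C1qa* in all 16 (0.67 to 0.87). The count over all genes was 1835 of 15259 tested in TPM, 1703 in TPM over the same 11689 genes (chosen after seeing the data) and 1775 to 3010 without single libraries. The count of members was 7 without both replicate 1 libraries and 3 to 7 without single libraries. With 2 libraries in a group, the spread is shared with the other group. Deviations of same-numbered libraries from their group means correlated at -0.50, -0.19 and -0.16, none the highest for its library. With deviations taken within groups of 3 libraries, such correlations cannot decide whether same-numbered libraries were handled together. With the replicate block 1083 genes, 2 members (*C4b* and *C1qa*) and 5 of the other complement genes were called. *Cfp* then had an adjusted p = 0.0676 (limma; 0.00465 to 0.0432 under its other alternatives). Voom on the recovered reads called 6 members and a filter at 2 FPKM 5, of the 8 it left. Depth limits *Cfb*, at 126 reads in KO and 156 in WT.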

Other observations

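Neighbouring genes were those whose start lay within 50 kb of the start of a member, or that overlapped it. They were read in the same way, and genes that lie close but start farther away are not covered. Around *C4b* no neighbour passed the filter: the 4 pseudogenes and 1 miRNA gene there had at most 0.134 FPKM on average in KO and 0.0409 FPKM in WT. Around *Cfb*, in the same complement gene region of chromosome 17, *Skiv2l*, of the RNA exosome helper complex, averaged 7.88 ± 0.962 FPKM in KO and 10.2 ± 0.0573 FPKM in WT (SD, n = 3 each; limma adjusted p = 0.0326), while *Ehmt2*, *Nelfe*, *Dxo* and *Stk19* did not pass. Beside *C3*, *Trip10* was lower (14.5 ± 1.41 FPKM in KO and 18.1 ± 0.561 FPKM in WT; limma adjusted p = 0.0372), and *Gpr108* and *Tnfsf14* did not pass. Beside *C3ar1*, *Necap1* was higher (11.6 ± 1.37 FPKM in KO and 8.14 ± 0.727 FPKM in WT; limma adjusted p = 0.0225) and *Foxj2* did not pass. No tested neighbour of *Cfp* or *C5ar1* passed.

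Of the 30 other complement genes below the filter, 9 were listed at 0 in all 6 libraries, among them the mannose-binding lectin genes *Mbl1* and *Mbl2* and the ficolin B gene *Fcnb*. The highest mean among the 30 was 0.388 FPKM, for *C5ar2*, the second C5a receptor gene, with 59 reads over the KO libraries and 58 over the WT libraries. *C2*, next to *Cfb*, had 10 reads in KO and 23 in WT, and *Hc* had 21 in KO and 27 in WT.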
